A study of Mus musculus with 6 samples.

Results

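The Serpin genes are a superfamily named for its serine protease inhibitors, and they were examined in mouse leukaemia cells of the acute myeloid kind after treatment with DB2313. DB2313 is a small molecule that the labels call an inhibitor of PU.1, the product of Spi1 and a transcription factor of the ETS family. Members were chosen by name: every row of the array table annotated to exactly 1 gene symbol that begins with Serpin, in clades A to I. There were 55 such rows for 54 genes, out of 22180 genes with a row of this kind. Only Serpinb9b had 2 rows, and the row with the higher mean signal over all 6 arrays stood for the gene. The family drew attention because Serpinb9e had the largest rise of all genes in the same comparison, so its difference is given as a description with no test. The other 53 genes entered by their names.

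The DB2313 group held 3 arrays of cells given DB2313 at 330 nM, and the vehicle group 3 arrays of cells given an equal volume of water. RNA of both groups was taken at 24 h. Both groups were the same PU.1low URE-/- line, which came from 1 leukaemic mouse without the upstream regulatory element (URE) of Spi1, so low PU.1 and the deletion were shared by treated and control cells. The labels call the arrays biological replicates without saying whether the cultures were started separately, so any p-value here covers only the spread among these arrays, which may be technical.

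Inhibitory serpins work as bait. A protease cuts an exposed loop near the end of the serpin chain, the serpin snaps into another shape, and the protease is trapped in a covalent complex. Clade A holds mainly secreted plasma proteins made in the liver, such as the antitrypsins. Clade B holds the intracellular serpins, several of which protect leukocytes from proteases of their own granules. In the mouse, several clade B genes have been copied many times, and most of these copies lie in a cluster on chromosome 13. Some members, such as Serpinh1, do not inhibit proteases.

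Across genes, Pearson's r was about 0.996 between arrays of a group and 0.994 to 0.995 between groups. All 24 myeloid leukaemia markers looked up were measured, with a mean log2 signal per array between 8.10 and 8.18 in DB2313 arrays and between 8.24 and 8.33 in vehicle arrays. The median log2 difference of the 24 markers was -0.02, with 10 above 0 and 14 below. Of the 24, 5 passed an adjusted p of 0.05 in limma, against 1.81% of all genes tested. For 19 of the 24 the signal lay at or above the median of all genes, where 3.36% of genes passed. Of the 24, 7, or 29.2%, had an unadjusted p under 0.05, against 12.7% of all genes. Cd33, a surface receptor of myeloid cells, fell by 1.85 on the log2 scale (limma adjusted p = 0.00287) and passed without any 1 array. The integrin chain gene Itgb2 fell by 0.70, Cd53 by 0.49 and Spi1 by 0.37 (limma adjusted p = 0.0342 for Spi1). Myb, a transcription factor gene named outside the rule for genes, rose by 0.34 (limma adjusted p = 0.0336). Calls of Spi1 and Myb were lost without any 1 array (adjusted p up to 0.134 and 0.143), that of Itgb2 in 5 of the 6 such settings and that of Cd53 in 4. The signal of a row depends on its probes, so signals were not compared between genes as amounts of RNA, and fewer cells of a type cannot be told apart from less RNA per cell.

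The DNA around the annotated starts of 4 neighbouring genes is shown first, because these copies are nearly alike in sequence and their array rows gave unlike differences. The rows of Serpinb9g and Serpinb9d lay near the bottom of the scale, and whether their probes would report a rise was not tested. Each window has 300 bases, from 250 before the start of the gene, and comes from RefSeq with assembly GRCm38.p6. Capitals mark GGAA or its reverse complement TTCC, the core letters that ETS factors recognise. The windows lie on the plus strand at chr13:33249358-33249657 for Serpinb9e, chr13:33323827-33324126 for Serpinb9f, chr13:33484540-33484839 for Serpinb9g and chr13:33192705-33193004 for Serpinb9d.
Serpinb9e: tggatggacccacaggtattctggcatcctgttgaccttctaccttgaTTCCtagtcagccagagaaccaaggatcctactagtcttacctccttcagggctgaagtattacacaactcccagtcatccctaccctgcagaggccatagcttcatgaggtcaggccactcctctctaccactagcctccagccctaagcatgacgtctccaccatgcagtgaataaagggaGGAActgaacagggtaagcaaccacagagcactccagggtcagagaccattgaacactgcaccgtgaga
Serpinb9f: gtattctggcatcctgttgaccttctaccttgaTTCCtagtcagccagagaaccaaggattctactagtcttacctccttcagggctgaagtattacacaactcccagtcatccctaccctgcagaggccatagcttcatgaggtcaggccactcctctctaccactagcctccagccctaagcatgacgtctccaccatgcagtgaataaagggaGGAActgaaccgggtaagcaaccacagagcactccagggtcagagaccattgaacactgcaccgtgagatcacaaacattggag
Serpinb9g: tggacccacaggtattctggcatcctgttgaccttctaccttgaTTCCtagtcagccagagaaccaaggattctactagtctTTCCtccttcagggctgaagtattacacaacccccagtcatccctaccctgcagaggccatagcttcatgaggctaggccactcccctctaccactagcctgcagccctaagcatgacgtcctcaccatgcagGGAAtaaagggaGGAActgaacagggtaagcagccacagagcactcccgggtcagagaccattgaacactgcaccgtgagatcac
Serpinb9d: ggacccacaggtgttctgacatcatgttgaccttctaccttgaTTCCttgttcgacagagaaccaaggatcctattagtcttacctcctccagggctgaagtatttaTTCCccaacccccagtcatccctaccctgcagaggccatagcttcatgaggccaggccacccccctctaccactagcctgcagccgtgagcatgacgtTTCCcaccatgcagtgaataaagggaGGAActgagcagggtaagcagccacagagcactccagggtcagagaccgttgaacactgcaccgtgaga

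Serpinb9e belongs to the mouse copies related to Serpinb9, the inhibitor of granzyme B. Its log2 signal was 9.44, 9.20 and 9.31 in the 3 DB2313 arrays, against 2.74, 2.77 and 2.91 in the 3 vehicle arrays. Every treated array stood more than 6 log2 units above every control array, and the smallest gap between the groups was 6.29. The means were 9.32 ± 0.12 with DB2313 and 2.81 ± 0.09 with vehicle (SD, n = 3 each), a log2 difference of 6.51. Among all 22180 genes, the mean of its row lay at percentile 94.7 of the DB2313 means and at percentile 6.62 of the vehicle means. The next largest rise of any gene was 3.49, for Ptprn. The background of each probe was not measured here, so no fold is given for a row this dim in vehicle. With an offset of 32 added on the linear scale, the difference was 4.10.

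Serpinb9f, the next measured gene along the chromosome, also rose. Its log2 signal was 6.06, 5.59 and 5.70 in DB2313 arrays, against 4.78, 4.75 and 4.73 in vehicle arrays. The groups did not overlap, and DB2313 replicate 1 was the highest. The log2 difference was 1.03 (SE 0.116, limma adjusted p = 0.00686), which is 2.05-fold. It stayed past the threshold without any 1 array, with adjusted p between 0.00747 and 0.0423. An unmoderated test did not call it (adjusted p = 0.105), and the offset of 32 gave 0.57. The probes of these copies were not examined for shared sequence, so signal from Serpinb9e transcripts in the Serpinb9f row was not tested.

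Serpinb8, whose human counterpart inhibits the protease furin, was the only other member past an adjusted p of 0.05. It lies in the clade B cluster of chromosome 1, apart from the Serpinb9 genes. Its log2 signal was 5.52, 5.85 and 5.82 in DB2313 arrays and 4.93, 5.25 and 5.13 in vehicle arrays. The treated arrays were all higher, by at least 0.27. The log2 difference was 0.63 (SE 0.116, limma adjusted p = 0.0452), or 1.54-fold. That call was lost when any 1 array other than DB2313 replicate 1 was left out, with adjusted p up to 0.168, with all rows of the table tested (0.155) and in an unmoderated test (0.215). With the offset of 32, the difference was 0.36. Furin itself, named outside the rule for genes, had a log2 difference of -0.13 (limma adjusted p = 0.430).

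Apart from Serpinb9e, then, 2 of 53 Serpin genes were called higher and 0 lower by limma. Of all genes tested, 1.81% were called, 1.02% higher and 0.789% lower. No test of that contrast was made, and both Serpin genes are in clade B. Differences lay above 0 in 30 of the 53 genes, against 49.1% of all genes. An unadjusted p under 0.05 was reached by 8 of the 53 genes, 7 higher and 1 lower, against 12.7% of all genes. Groups that did not overlap were found for 10 of the 53, or 18.9%, against 19.3% of all genes. The median log2 difference of the 53 genes was 0.04, and that of all genes -0.002.

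**Figure D1:**
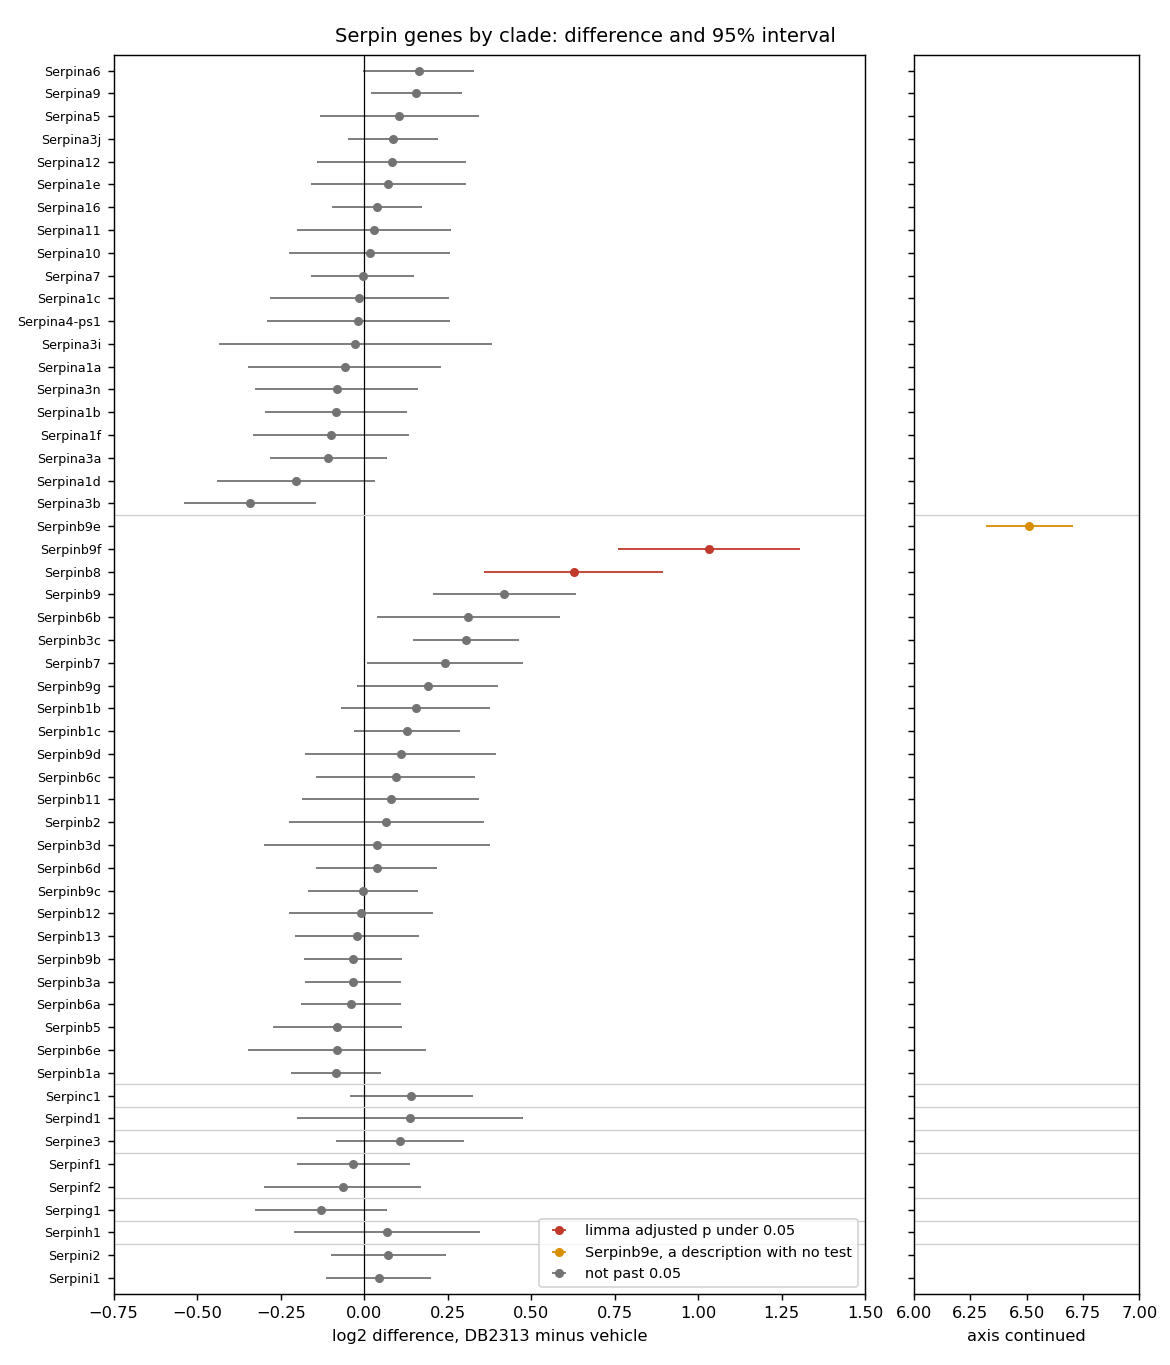
Log2 difference of DB2313 minus vehicle (x axis) for each of the 54 Serpin genes (y axis), grouped by clade A to I from the top and sorted within each clade, with limma's 95% confidence interval as the bar. The right panel continues the axis for Serpinb9e, at 6.51; Serpinb9f and Serpinb8 are the 2 genes in red, and the other 51 lie between -0.34 and 0.42.

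Clade B held 25 measured genes, 15 on chromosome 13 and 10 on chromosome 1. Differences lay above 0 in 16 of them, Serpinb9e included, and below 0 in 9, with a median of 0.08. Of all genes, 49.1% had a difference above 0. In the 14 chromosome 13 genes other than Serpinb9e the median was 0.10, and in the 10 chromosome 1 genes 0.05.

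Within the 7 measured Serpinb9 genes, differences ran from -0.03 to 6.51. Serpinb9 itself, which guards leukocytes against granzyme B, had 5.39, 5.44 and 5.17 in DB2313 arrays and 5.01, 4.93 and 4.81 in vehicle arrays. Its groups did not overlap, and the log2 difference of 0.42 (SE 0.092) missed the threshold at a limma adjusted p of 0.0839. The alternative with a trended and robust prior called it (adjusted p = 0.0473). Gzmb, which encodes granzyme B and is named outside the rule, had 3.62 ± 0.31 with DB2313 and 3.79 ± 0.22 with vehicle (SD, n = 3 each), a log2 difference of -0.17 with an interval from -0.56 to 0.23.

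The remaining copies of Serpinb9 did not pass. Serpinb9g had 2.79, 2.67 and 2.60 in DB2313 arrays and 2.35, 2.63 and 2.51 in vehicle arrays, a log2 difference of 0.19 (interval -0.02 to 0.40, limma adjusted p = 0.448). Serpinb9d had 3.07, 2.72 and 2.56 in DB2313 arrays and 2.69, 2.68 and 2.66 in vehicle arrays, a difference of 0.11 (interval -0.18 to 0.40). In both genes the groups overlapped, and the treated arrays of Serpinb9d spread more widely than the controls. Serpinb9b had a difference of -0.03 in its brighter row and -0.08 in its other row, and Serpinb9c had -0.002. The upper limits of the 95% intervals were 0.11 for Serpinb9b and 0.16 for Serpinb9c. The rows of Serpinb9c, Serpinb9d and Serpinb9g lay near the bottom of the scale, at percentiles 6.20, 5.41 and 3.46 of mean signal. Their intervals cover only the spread among arrays, and whether their probes would report a rise was not tested.

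**Figure D2:**
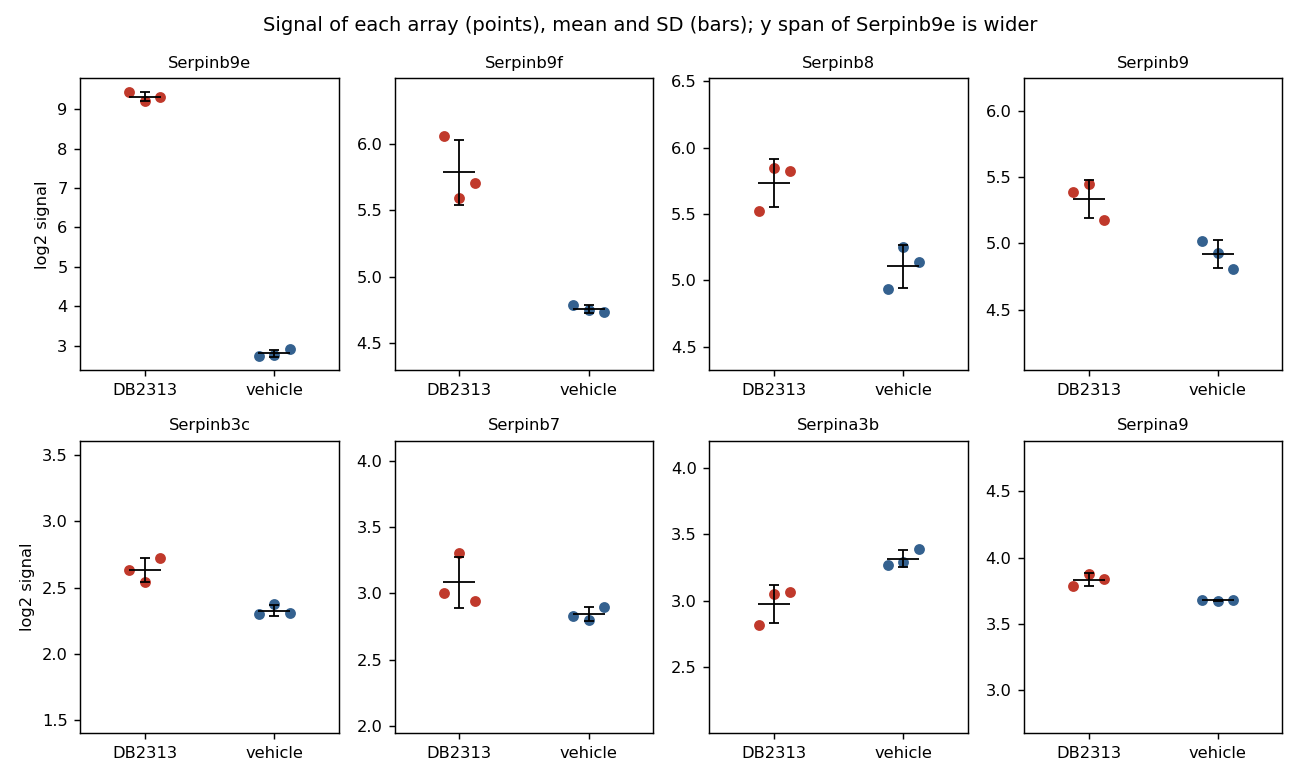
Log2 signal (y axis) of every array for Serpinb9e, shown as a description, and the 7 other Serpin genes whose groups did not overlap and whose unadjusted p was under 0.05, with DB2313 on the left and vehicle on the right of each panel. Points are single arrays, and bars give the mean and SD of 3; Serpinb9e spans 2.74 to 9.44, while the other 7 panels share a narrower span.

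Along chromosome 13, the cluster from Serpinb1a to Serpinb6a held 15 measured genes, all of them Serpin genes. In the order of the RefSeq annotation, Serpinb9e stood between Serpinb9d, with a difference of 0.11, and Serpinb9f, with 1.03. Serpinb9g followed with 0.19, and the difference was 0.04 in Serpinb6d. Of the 10 measured genes that flank the cluster, 5 on each side, none passed in limma, and 1 had an unadjusted p under 0.05. Of all genes tested, 1.81% passed and 12.7% had an unadjusted p under 0.05. The largest absolute difference among these 10 was that of Nqo2, a quinone reductase, at -0.26 (limma adjusted p = 0.163). Of 18 measured genes on a list of non-serpin genes around the cluster, 0 were called by limma. An unadjusted p under 0.05 was reached by 2 of the 18, or 11.1%, both lower, near the share of all genes. Most of the flanking genes, Nqo2 among them, are on that list too, so the counts are not separate. Psmg4, which encodes a proteasome assembly chaperone, had the smallest p with a difference of -0.27 (adjusted p = 0.156).

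**Figure D3:**
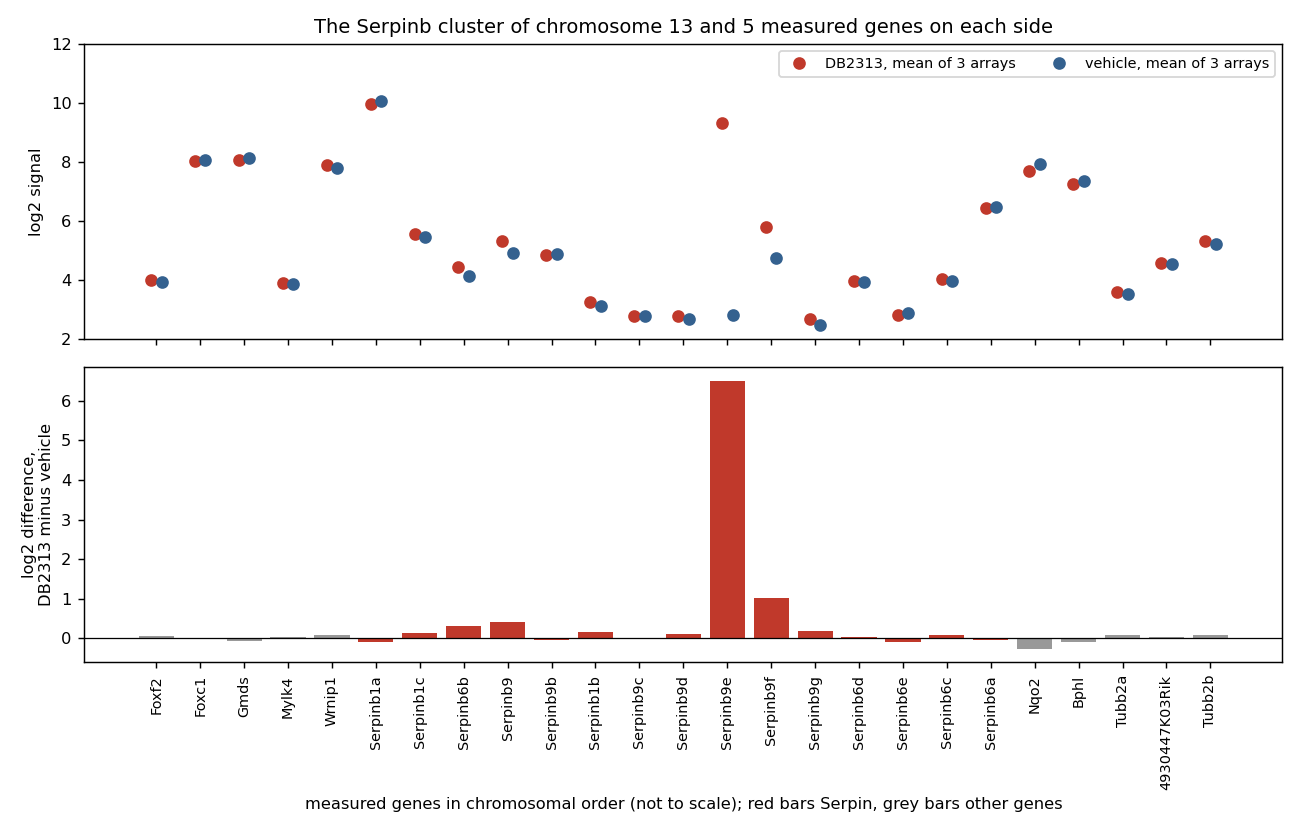
The 25 measured genes from 5 before to 5 after the Serpinb cluster, in chromosomal order on the x axis and not to scale. The upper panel gives the mean log2 signal of 3 DB2313 arrays (red) and 3 vehicle arrays (blue), and the lower panel the log2 difference as bars from 0, in which Serpinb9e at 6.51 and Serpinb9f at 1.03 stand out from neighbours between -0.26 and 0.42.

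The start regions of these genes were set beside their responses. Over its 300 bases, the Serpinb9e window was 93.4% identical to that of Serpinb9g, 89.8% to Serpinb9f and 89.5% to Serpinb9d in a global alignment. The other measured Serpinb9 genes were less alike, with 62.3% and 51.5% for the starts of Serpinb9c, 44.2% for Serpinb9b and 44% for Serpinb9. The 47 windows of measured Serpin genes outside the Serpinb9 group had a median identity to the Serpinb9e window of 46.6%, from 43.3% to 51.5%. Where the unmatched ends were left out, Serpinb9e and Serpinb9f shared 283 of 285 aligned bases with no gap. The differences, with the base of Serpinb9e first, its position counted from 1 at the 5′ end of the Serpinb9e window, and then the base of Serpinb9f, were C76T and A242C. By the same measure Serpinb9e and Serpinb9g shared 284 of 296 bases. The array differences of Serpinb9e, Serpinb9f, Serpinb9g and Serpinb9d were 6.51, 1.03, 0.19 and 0.11. The rows of Serpinb9g and Serpinb9d were dim, and signal from Serpinb9e transcripts in the Serpinb9f row was not tested.

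**Figure D4:**
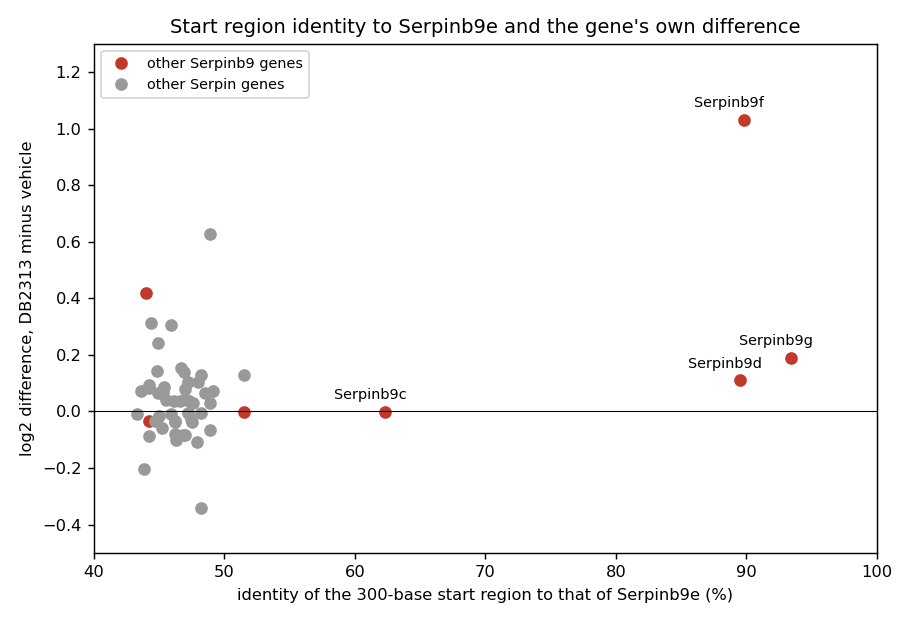
Identity of each Serpin start region to that of Serpinb9e in percent (x axis), against the log2 difference of DB2313 minus vehicle of that gene (y axis), with a point per annotated start. Red points are the other Serpinb9 genes and grey points other Serpin genes; Serpinb9d, Serpinb9f and Serpinb9g lie between 89.5% and 93.4%, with differences from 0.11 to 1.03.

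Letters of the ETS core were searched on both strands of these windows. GGAA was present in 96.0% of all 32851 promoters of the RefSeq table, so its presence says little. The longer GAGGAA, which contains GGAA, was in 28.3% of them and in 16 of the 55 windows of measured Serpin genes. In Serpinb9e, Serpinb9f, Serpinb9g and Serpinb9d it was found on the plus strand, starting 21, 36, 25 and 21 bases before the annotated start, and Serpinb9g had a further match on the minus strand, 168 bases before it. Whether these letters bear on the array differences was not tested, and the rows of Serpinb9g and Serpinb9d lay near the bottom of the scale. GGAAGT, in 23.8% of all promoters, was not in the windows of these 4 genes, and was found in that of Serpinb8, starting 30 bases before the start. AAAGGAA, in 9.50% of all promoters, was not in the windows of these 5 genes.

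The Serpinb1 and Serpinb6 copies lie in the same cluster, and none of them passed in limma, against 1.81% of all genes. Serpinb1a, an inhibitor of the neutrophil granule proteases, had 9.97, 9.94 and 10.03 in DB2313 arrays and 10.04, 10.06 and 10.08 in vehicle arrays. The treated arrays were all just lower, but the difference of -0.08 (interval -0.22 to 0.05) did not pass (limma adjusted p = 0.625). Its target proteases, named outside the rule, gave log2 differences of -0.002 for Elane, 0.04 for Ctsg and 0.05 for Prtn3, with limma adjusted p of 0.994, 0.848 and 0.774. These rows lie near the top of the scale of signal. Serpinb1c had 0.13 and Serpinb1b 0.15, and neither passed.

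Among the Serpinb6 genes, Serpinb6a, whose human counterpart inhibits cathepsin G, had 6.42, 6.42 and 6.46 in DB2313 arrays and 6.50, 6.38 and 6.53 in vehicle arrays. The groups overlapped, and the difference was -0.04 (interval -0.19 to 0.11). Serpinb6b had 4.47, 4.30 and 4.56 in DB2313 arrays and 4.35, 4.12 and 3.93 in vehicle arrays, and these groups overlapped. Its difference of 0.31 (interval 0.04 to 0.59, limma unadjusted p = 0.0311) did not pass (limma adjusted p = 0.329). Serpinb6c, Serpinb6d and Serpinb6e had differences of 0.09, 0.04 and -0.08.

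Of the 10 clade B genes on chromosome 1, 3 had groups that did not overlap, against 19.3% of all genes. They were Serpinb8, given above, Serpinb3c and Serpinb7. Serpinb3c is one of the mouse relatives of the human squamous cell carcinoma antigens. It had 2.63, 2.55 and 2.72 in DB2313 arrays and 2.30, 2.37 and 2.31 in vehicle arrays, a difference of 0.31 (limma adjusted p = 0.0889), which was 0.05 with the offset of 32. Serpinb7 had 3.003, 3.31 and 2.94 in DB2313 arrays and 2.83, 2.80 and 2.90 in vehicle arrays, a difference of 0.24 (limma adjusted p = 0.378). Both rows lie near the bottom of the scale. The plasminogen activator inhibitor Serpinb2 and the maspin gene Serpinb5 had 0.07 and -0.08. A further row, whose annotation joins Serpinb10 and Serpinb2, stands for no gene here. This row had 5.06, 5.16 and 5.12 in DB2313 arrays and 5.43, 5.60 and 5.59 in vehicle arrays. The treated arrays were all lower there, by 0.43 on average, with a limma adjusted p of 0.118 over all rows of the table. The only other row that joins a Serpin symbol with another, 1110046J04Rik and Serpinb6a, had a difference of 0.02.

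In clade A, none of 20 measured genes passed the test in limma, against 1.81% of all genes. An unadjusted p under 0.05 was reached by 2 of the 20, against 12.7% of all genes. The differences of the 20 genes lay between -0.34 and 0.16, with 9 above 0 and 11 below. All 20 rows had a mean signal below the median of all genes, 5.17, where 0.252% of genes passed. The lowest difference was that of Serpina3b, with 2.81, 3.05 and 3.06 in DB2313 arrays and 3.27, 3.29 and 3.39 in vehicle arrays. Its groups did not overlap, and the difference of -0.34 (SE 0.085) had a limma adjusted p of 0.127 and shrank to -0.07 with the offset of 32. Serpina9, a gene of germinal centre B cells in human, had 3.78, 3.88 and 3.84 in DB2313 arrays and 3.68, 3.68 and 3.68 in vehicle arrays, a difference of 0.16 (limma adjusted p = 0.316). The Serpina1 genes, which encode the antitrypsins that inhibit neutrophil elastase in plasma, had differences between -0.20 and 0.07 over 6 copies.

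Clades C to I had 9 measured genes. None passed in limma, and 0 had an unadjusted p under 0.05, against 1.81% and 12.7% of all genes. In clade C, Serpinc1, encoding antithrombin, had a log2 difference of 0.14, and in clade D Serpind1, encoding heparin cofactor, also had 0.14. Serpine3 was the single clade E gene with a row of its own, at 0.11. In clade F, Serpinf1, encoding pigment epithelium-derived factor, had 8.04, 8.24 and 8.16 in DB2313 arrays and 8.20, 8.22 and 8.12 in vehicle arrays. Its groups overlapped, with a difference of -0.03 (interval -0.20 to 0.14), and Serpinf2, the plasmin inhibitor, had -0.06. In clade G, Serping1, the complement C1 inhibitor gene, had -0.13 (interval -0.33 to 0.07). Serpinh1 of clade H, the collagen chaperone of the endoplasmic reticulum, had 5.31, 5.16 and 5.19 in DB2313 arrays and 5.08, 4.95 and 5.42 in vehicle arrays, a difference of 0.07 (interval -0.21 to 0.35). In clade I, neuroserpin, encoded by Serpini1, had 0.04, and Serpini2 had 0.07.

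**Figure D5:**
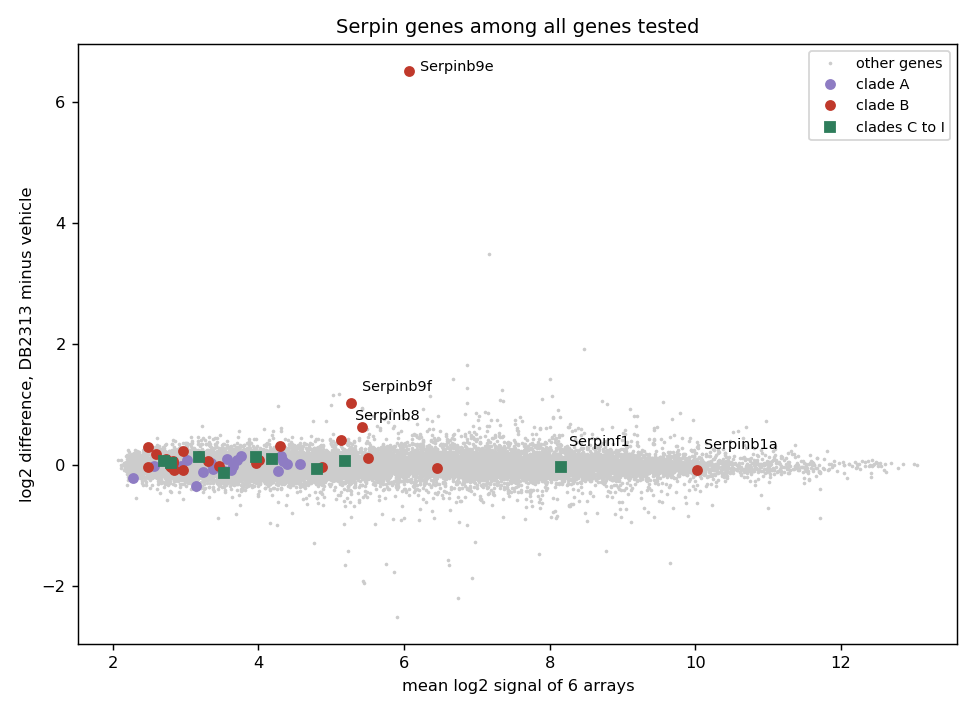
Mean log2 signal over 6 arrays (x axis) against the log2 difference of DB2313 minus vehicle (y axis) for all 22180 genes tested in grey, with 20 clade A genes in purple, 25 clade B genes in red and 9 genes of clades C to I as green squares. Of the 54 Serpin genes, 46 lie below the median signal of 5.17, and Serpinb9e stands apart at 6.51.

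In all, 46 of the 54 rows lay below the median signal of all genes. Of all genes below that median, 0.252% passed the test, against 3.36% of those at or above it. Serpinb9f and Serpinb8, the 2 called genes, had vehicle means of 4.75 and 5.11, below 5.17, and their means over all 6 arrays lay above it only through the DB2313 arrays.

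Proteases and other inhibitors were looked up in lists. Of all genes tested, 1.81% were called by limma and 12.7% had an unadjusted p under 0.05. Of 21 measured myeloid serine proteases and granzymes, 1 rose and 0 fell in limma, with a median log2 difference of -0.004. An unadjusted p under 0.05 was reached by 2 higher and 2 lower genes of this list. The riser was Prss57, a granule serine protease of neutrophils, with 6.53, 6.96 and 6.70 in DB2313 arrays and 5.71, 5.99 and 5.70 in vehicle arrays. The treated arrays were all higher, and the difference was 0.93 (SE 0.127, limma adjusted p = 0.0141), which did not pass without DB2313 replicate 3 or vehicle replicate 1 or 3 (adjusted p up to 0.0763). Of 20 cysteine, aspartic and caspase proteases, 9, or 45.0%, had an unadjusted p under 0.05, 5 higher and 4 lower, and 1 passed in limma. Ctse, the aspartic protease cathepsin E, fell by 0.44 on the log2 scale (limma adjusted p = 0.0198), a call lost without any 1 array (adjusted p up to 0.0851). None of 27 plasminogen activation and coagulation genes passed in limma, and 4, or 14.8%, had an unadjusted p under 0.05. The anticoagulant cofactor gene Pros1 had the smallest p with a difference of -0.38 (adjusted p = 0.160), followed by the coagulation factor gene F5 (-0.33).

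Inhibitors of other families gave 2 calls among 44 measured genes, both lower, against 1.81% of all genes called. Of the 44, 8, or 18.2%, had an unadjusted p under 0.05, against 12.7% of all genes. Pi16, a peptidase inhibitor gene, fell by 0.43 (limma adjusted p = 0.0181), and Cast, encoding the calpain inhibitor calpastatin, by 0.32 (limma adjusted p = 0.0435). Both calls were lost without any 1 array, with adjusted p up to 0.0798 for Pi16 and 0.157 for Cast. The median log2 difference of these inhibitors was 0.05. Of 21 collagen genes and folding partners of Serpinh1, the cross-linking enzyme gene Lox alone passed in limma, and no other had an unadjusted p under 0.05. Lox rose by 1.18 (limma adjusted p = 0.00782), which was 0.61 with the offset of 32. Its call was kept without any 1 array and lost with the replicate number as a block (adjusted p = 0.0560) and in an unmoderated test (0.120).

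Markers of other cell types were listed as well. None of 28 placenta and trophoblast markers, 16 T and natural killer cell markers or 11 mast cell markers passed in limma, and 1, 1 and 0 of them had an unadjusted p under 0.05. The mean log2 signal of the trophoblast list per array lay between 3.87 and 3.99 with DB2313 and between 3.89 and 4.001 with vehicle. Its smallest p was that of Psg23, with a difference of 0.24 (limma adjusted p = 0.198), followed by Tpbpa (-0.22). Zap70 (-0.22) and Cd8b1 (0.12) had the smallest p of the lymphoid list, and Gata2 (-0.16) and Tpsb2 (0.17) of the mast cell list. Of 14 fibroblast and stromal markers, 1 passed, the endothelial cadherin gene Cdh5, which was higher by 0.86. Of all genes, 1.81% passed. An unadjusted p under 0.05 was reached by 4 of these 14, or 28.6%, 2 higher and 2 lower, against 12.7% of all genes.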

How the data were processed

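RNA of 3 DB2313 and 3 vehicle arrays was labelled with biotin and hybridised to Affymetrix arrays, per the labels' protocols. Affymetrix Expression Console was used, per the submitters' processing notes. The sources used here do not give the background correction, probe summary or genome build. The deposited values are on the log2 scale, as judged from their range, with medians per array between 4.77 and 4.82. Scanner files were not used here. The number of arrays limits the precision.

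The table has 41345 rows, of which 23521 had 1 gene symbol, 1814 several and 16010 none in the platform annotation. Rows with several or no symbols stand for no gene here. All 54 Serpin genes matched the RefSeq table by gene identifier. A further 15 Serpin symbols of RefSeq had no row annotated to them alone and were not analysed as genes here. DB2313 was compared with vehicle over 22180 genes with lmFit and eBayes of limma 3.58.1 in R 4.3.3, 2-sided, with Benjamini-Hochberg adjustment over all genes at 0.05 and no filter on dim genes. Rows other than the brightest were read from a fit over all rows. Intervals are at 95%. The script was tested on simulated data. Promoters were aligned with Biopython 1.88, and 47 of the 54 genes had one.

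The members, lists and tests were chosen with earlier results of these data known. Named were Serpinb9e, Serpin genes past the threshold, those with unadjusted p under 0.05 and groups that do not overlap, the 10 brightest, the largest difference in each clade, and all Serpinb1, Serpinb6 and Serpinb9 genes. Up to 4 genes past the threshold were named from each list, or the 2 of smallest p, and Spi1. Genes outside this rule are said to be so, or are given by a log2 difference alone. Alternatives were other normalizations, an offset, filters, priors, rows, a replicate block and each array left out.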

Additional observations from a re-analysis of the deposited data

How the results depend on the processing

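Of 416 recomputed values of named Serpin genes over 16 alternative settings, 406 kept their side of the threshold, or for Serpinb9e stayed within 1 SD. The other 10 were those of Serpinb8, Serpinb9, Serpinb9f and Serpinb9e given in the text. Signs turned in 9 of these values, all of genes not past the threshold. Most named Serpin genes were never past the threshold, many far from it, so the count of 406 says little about the calls. Serpinb8 passed in 1 of the 6 settings without 1 array and in 8 of the 10 others. Serpinb9f passed in 6 of 6 and in 9 of 10. The filter at the median signal, among those 10, kept both genes only through their DB2313 arrays. Of the 53 Serpin genes other than Serpinb9e, 2 passed, against 3 with a trended and robust prior, 1 with all rows tested, between 1 and 2 without any 1 array, and 0 with an unmoderated test, where 8 had an unadjusted p under 0.05. The difference of Serpinb9e lay between 6.45 and 6.57 without any 1 array, and was 4.10 with an offset of 32. Of all genes, 401 passed, against 830 with the offset, 799 without genes below the median signal, 920 with a trended and robust prior, 142 with all rows tested, 70 with an unmoderated test, and between 136 and 187 without any 1 array. The cause of these shifts was not tested, beyond fewer genes, more rows or fewer arrays entering a fit. With the replicate number as a block, 190 genes passed, and Serpinb8 and Serpinb9f were the Serpin genes called, leaving Serpinb9e aside. Same-numbered arrays of the groups had correlations of 0.02, 0.08 and 0.01 in their deviations, not every array correlated best with its own number, and the numbers were not taken as pairs. Most Serpin rows are dim, and background was not measured, so small changes in them could not be seen. The replicate block also ended the calls of Cast (adjusted p = 0.126), Ctse (0.0815), Pi16 (0.0666), Spi1 (0.113), Cd53 (0.0656) and Myb (0.113). Of the 10 alternatives that left out no array, Cast and Myb passed in 6, and Ctse, Pi16, Spi1 and Cd53 in 7. Itgb2 and Prss57 passed in 8 of them, and Cd33 and Cdh5 in 9. The unmoderated test called none of the list genes named as called in the text (adjusted p from 0.0547 to 0.172).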
